A study of Mus musculus with 4 samples.

Results

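The genes described here are 69 mouse genes of the splicing machinery: SR proteins, hnRNPs, polypyrimidine tract-binding proteins, SF3 subunits, snRNP proteins and pre-mRNA processing factors. They were chosen by name, as the genes whose name on the array started with Srsf, Sfrs, Hnrnp, Hnrp, Sf3, Snrp, Prpf or Ptbp, with Snrpn left out, and whose signal was well above background on at least 1 of 4 arrays. Of 75 genes with such a name 69 passed, among 17732 genes that passed over the whole array. By current names they comprised 20 hnRNP genes, 10 SR protein genes, 8 SR-related genes, 7 SF3 genes, 11 Snrp genes, 12 Prpf genes and Ptbp1. The study measured total RNA of erythrocyte/megakaryocyte progenitors (MEP) on one-colour Agilent arrays, all from mice of C57BL/6 background, with 1 array for each of 4 groups. The groups were Ezh2-null MEP of adult bone marrow, wild-type MEP of adult bone marrow, Ezh2-null MEP of E14.5 fetal liver and wild-type MEP of E14.5 fetal liver. The labels do not say how the MEP were isolated, how many animals gave a sample, which part of Ezh2 was deleted or in which cells.

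Splicing removes introns from pre-mRNA in the spliceosome, which is built from small nuclear ribonucleoprotein particles (snRNPs) and many further proteins. The Snrp genes encode the Sm ring carried by the spliceosomal snRNAs other than U6, and proteins particular to the U1 and U2 snRNPs, SF3 subunits help the U2 snRNP to hold the branch point, and several Prpf genes encode proteins of the U4/U6.U5 tri-snRNP. SR proteins bind exonic enhancers and mostly favour exon inclusion, whereas hnRNPs coat nascent RNA and often favour skipping. Ezh2 is the catalytic subunit of Polycomb repressive complex 2, which methylates histone H3 at lysine 27. MEP are the progenitors from which red cells and platelets are made.

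With 1 array per group no comparison between 2 arrays has a replicate check, so such differences carry no p-value, and a gene was called higher or lower at 2-fold or more (1 on the log2 scale). Signals were scaled to an equal 75th percentile and are given as scaled signal, and all differences are log2 differences of scaled signal. A probe that was not well above background on 1 of 2 arrays gives a bound, written "at least". It sets the bright signal against the dim array's lowest detected signal or, if higher, the dim probe's own. The targeted gene went against the labels: the 1 Ezh2 probe had a scaled signal of 70.0 on the array labelled Ezh2-null and 35.4 on the wild-type array in bone marrow (1.98-fold higher), and of 194.3 on the array labelled Ezh2-null and 33.5 on the wild-type array in fetal liver (5.79-fold higher). Where the probe lies relative to the deletion is not stated. Each direction below therefore rests on the labels. Of 12 listed progenitor markers 12 were well above background on the fetal liver null array and 10 on each of the other arrays. Cd34 and Itga2b were the ones not detected there. Cd34 had 20.1 on fetal liver null, where the lowest detected signal was 12.6, and was not taken as a mark of MEP. Markers of other cells also moved. The summed signal of 10 B lymphoid markers, 7 of them detected on some array, was 3995 on the bone marrow null array, against 170.4 on bone marrow wild type. The summed signal of 10 hepatocyte markers, 5 detected, was 135.8 on the fetal liver null array, against 679.1 on fetal liver wild type. The part of these cells in the results was not tested. In such mixed RNA fewer cells of a type and less RNA per cell cannot be told apart. Over 12880 probes the bone marrow arrays correlated at r = 0.982, and the other pairs of arrays at 0.915 to 0.937.

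Most splicing genes were measured in every group: 60 of 69 were well above background on all 4 arrays. By array, 62 were detected in bone marrow null, 64 in bone marrow wild type, 66 in fetal liver null and 62 in fetal liver wild type. Genes not detected on any array included Hnrnph3, Ptbp2, Scaf11, Sf3b1 and Srsf12, each with 1 probe. Ptbp2, which replaces Ptbp1 in neurons, was thus not detected in MEP, and neither was the probe of Sf3b1, the largest SF3 subunit. For 41 of the 69 members the value rests on 1 detected probe.

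In fetal liver, splicing genes were mostly higher on the null array than on the wild-type array, and the families went apart: 13 of 20 hnRNP genes were called higher and none lower, while 9 of 11 Snrp genes lay below 0. Of 67 members measured, 27 were called higher (15.4% of all genes measured) and 7 lower (13.5% of all genes). The median member was 0.46 higher on the log2 scale, against −0.14 for all genes. Under the 75th percentile over all probes the members split into 24 higher and 12 lower, and under spike-in scaling into 33 and 3. All genes went from 2505 higher and 2203 lower to 2162 and 3067, and to 3837 and 808, in these settings. With normexp background correction 14 members were called higher and 3 lower, and 794 and 1059 of all genes. That setting adds an offset of 50, which draws ratios of dim signals toward 1.

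The hnRNP genes stood highest, with a median of 1.31. Hnrnpu encodes a scaffold-attachment protein that binds chromatin and RNA, and its probe (chr1:180258996-180259055, mm9, minus strand) had a scaled signal of 1147 on the fetal liver null array, against 91.9 on fetal liver wild type, 12.5-fold higher. The same probe stood at 44.3 on bone marrow null and 80.5 on bone marrow wild type, so a single array of the 4 was high. Hnrnpul1, a relative of Hnrnpu, had 341.9 on the null array against 47.2 on wild type, 7.25-fold higher at its brighter probe. Its other probe had 15.5 on the null array and was not well above background on wild type, at 16.2, so the 2 probes differ. Hnrnpm, an exon silencer, had 9457 against 1943, 4.87-fold higher, and Hnrnph1, which binds runs of G, had 7105 against 1719, 4.13-fold higher. Both had their highest signal of the 4 arrays on fetal liver null. Hnrnpr followed at 2.04 on the log2 scale, and Hnrnph2 was at least 3.61-fold higher, being not well above background on wild type.

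Hnrnpa1l2-ps, a pseudogene of the Hnrnpa1 group, had 3055 against 865.8 and was 3.53-fold higher, and whether its probe also binds RNA of Hnrnpa1 was not tested.

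The A, C and K group hnRNPs varied, also between probes of a gene. Hnrnpa1, which antagonises SR proteins at splice sites, was 2.55-fold higher at its brighter probe, with 451.9 on fetal liver null against 177.1 on wild type. Its other probe had 370.7 against 35.8, a log2 difference of 3.37. Of 7 Hnrnpa3 probes the one with the highest mean signal over the 4 arrays was 0.86 higher. The others were between 1.25 and 2.96 higher where measured on both arrays, and at least 1.19 and at least 2.13 higher where bounds. Hnrnpk, a binder of C-rich RNA, was 2.42-fold higher with 577.5 against 238.1. Hnrnpa2b1, a binder of UAG-containing RNA, had 35.5 against 42.1, and Hnrnpc, which binds runs of U, had 3038 against 3460, both within 2-fold. Within the family the difference therefore ran from −0.88 at Hnrnpd to 3.64 at Hnrnpu. The family's median stayed above 0 under every alternative processing run, between 0.95 and 1.78.

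The Snrp genes ran the other way. Their median was −0.85, and 2 of 11 were called higher against 3 lower. The split was 1 higher and 6 lower under the 75th percentile over all probes, and 2 and 2 under spike-in scaling. The probes shown next are those of Snrpd2 and Snrpb, the Snrp genes with the largest differences, and both encode proteins of the Sm ring. Each probe has 60 bases and is printed 5′ to 3′ in the sense of the transcript, as the array files give it.
Snrpd2, chr7:19737898-19737957, mm9, plus strand: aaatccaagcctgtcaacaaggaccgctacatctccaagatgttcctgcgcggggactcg
Snrpb, chr2:130001112-130001171, mm9, minus strand: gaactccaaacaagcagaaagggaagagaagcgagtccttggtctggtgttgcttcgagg

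The Snrpd2 probe had 12240 on fetal liver null against 35810 on fetal liver wild type, 2.92-fold lower. On bone marrow null and wild type it had 14630 and 14230, so the fetal liver wild-type array was the one that stood apart. The Snrpb probe had 38.5 on fetal liver null against 108.8 on wild type, 2.83-fold lower. Snrpc, a U1 snRNP protein that helps to recognise the 5′ splice site, had 1398 against 3106, 2.22-fold lower. The other Sm genes, Snrpd1, Snrpd3, Snrpe, Snrpf and Snrpg, lay between −0.94 and −0.46 and were not called. Snrpa, which binds a stem-loop of U1 snRNA, was also within 2-fold with 475.9 against 636.9. The 2 exceptions were the partner proteins of the U2 snRNP, Snrpa1 with 1075 against 451.1 (2.38-fold higher) and Snrpb2 with 602.4 against 290.0 (2.08-fold higher). The family's median stayed below 0 under every alternative run, between −1.02 and −0.39.

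**Figure D1:**
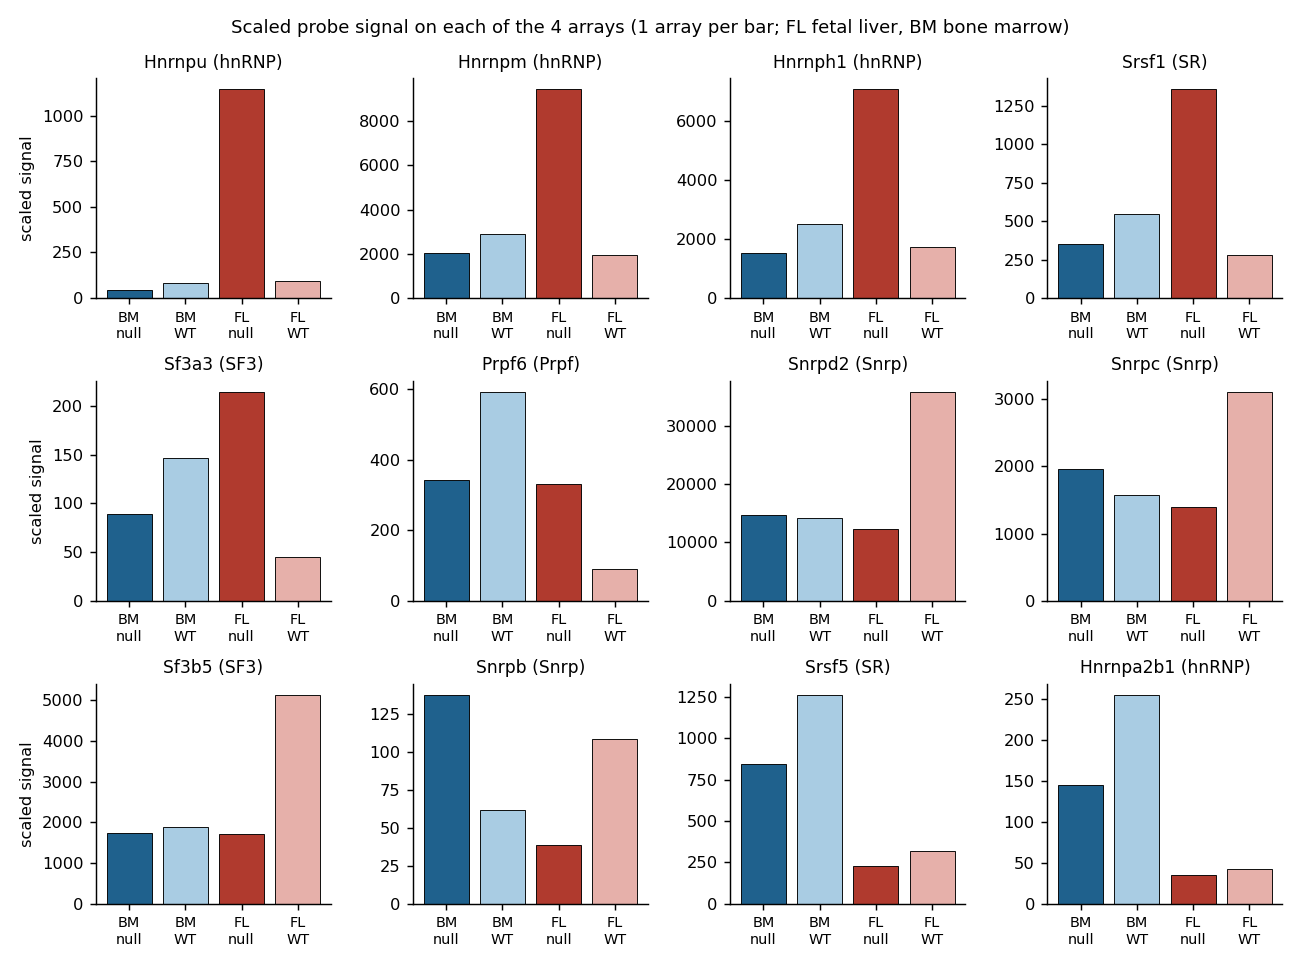
Scaled signal (linear axis from 0) of 12 splicing genes on each of the 4 arrays, 1 bar per array: bone marrow (BM) null and wild type (WT), then fetal liver (FL) null and wild type. Hnrnpu, Hnrnpm, Hnrnph1 and Srsf1 were highest on fetal liver null, Snrpd2, Snrpc and Sf3b5 on fetal liver wild type, and Srsf5 and Hnrnpa2b1 on the bone marrow arrays. There are no replicates, so no error bars are drawn.

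Among the SF3 genes, 2 of 7 were called higher and 1 lower. Sf3a3, a subunit of the SF3a trimer, had 214.4 on fetal liver null against 44.6 on wild type, 4.81-fold higher. Sf3b3, a large SF3b subunit, was 2.34-fold higher. Sf3b5, a small SF3b subunit, had 1726 against 5143, 2.98-fold lower, and like Snrpd2 it was close to its null value on both bone marrow arrays. Sf3a1, which carries the SURP domains of SF3a, had 158.1 against 142.3, within 2-fold.

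The Prpf genes leaned the same way as the hnRNPs, with 7 of 12 called higher, 1 lower and a median of 1.19. Prpf18, a factor of the second catalytic step, was at least 7.36-fold higher: its probe had 142.1 on fetal liver null and was not well above background on fetal liver wild type, at 4.33. Prpf6, a bridging protein of the tri-snRNP, had 332.8 against 89.5, 3.72-fold higher. Prpf4b, a kinase of the tri-snRNP, was at least 3.29-fold higher, whereas Prpf39, a U1-associated protein, was at least 2.38-fold lower. Prpf8, the U5 protein at the heart of the spliceosome, had 618.3 against 389.5, within 2-fold. Prpf19, the ubiquitin ligase that names the Prp19 complex, had 12.9 against 25.1 and was not called. Both Prpf19 signals lay near the lowest detected signal of their array, 12.6 on null and 19.3 on wild type. With normexp background correction 2 Prpf genes were called higher and none lower.

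Of 10 SR protein genes 1 was called higher and 1 lower. Srsf1 had 1361 on fetal liver null against 281.8 on wild type, 4.83-fold higher, and 350.9 and 548.9 on bone marrow null and wild type. Srsf9 had 608.5 against 1290, 2.12-fold lower. Most SR genes lay between these: Srsf2 had 3545 against 4118, Srsf3 had 5068 against 5152, Srsf5 had 228.2 against 321.1 and Srsf7 had 1744 against 2974. Of 6 SR-related genes measured, Clasrp, which binds CLK kinases, was 3.66-fold higher, Srek1ip1 was 2.58-fold higher and Scaf4 was 2.31-fold lower. Ptbp1, the repressor of many exons in non-neuronal cells, had 2024 against 1475, within 2-fold.

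**Figure D2:**
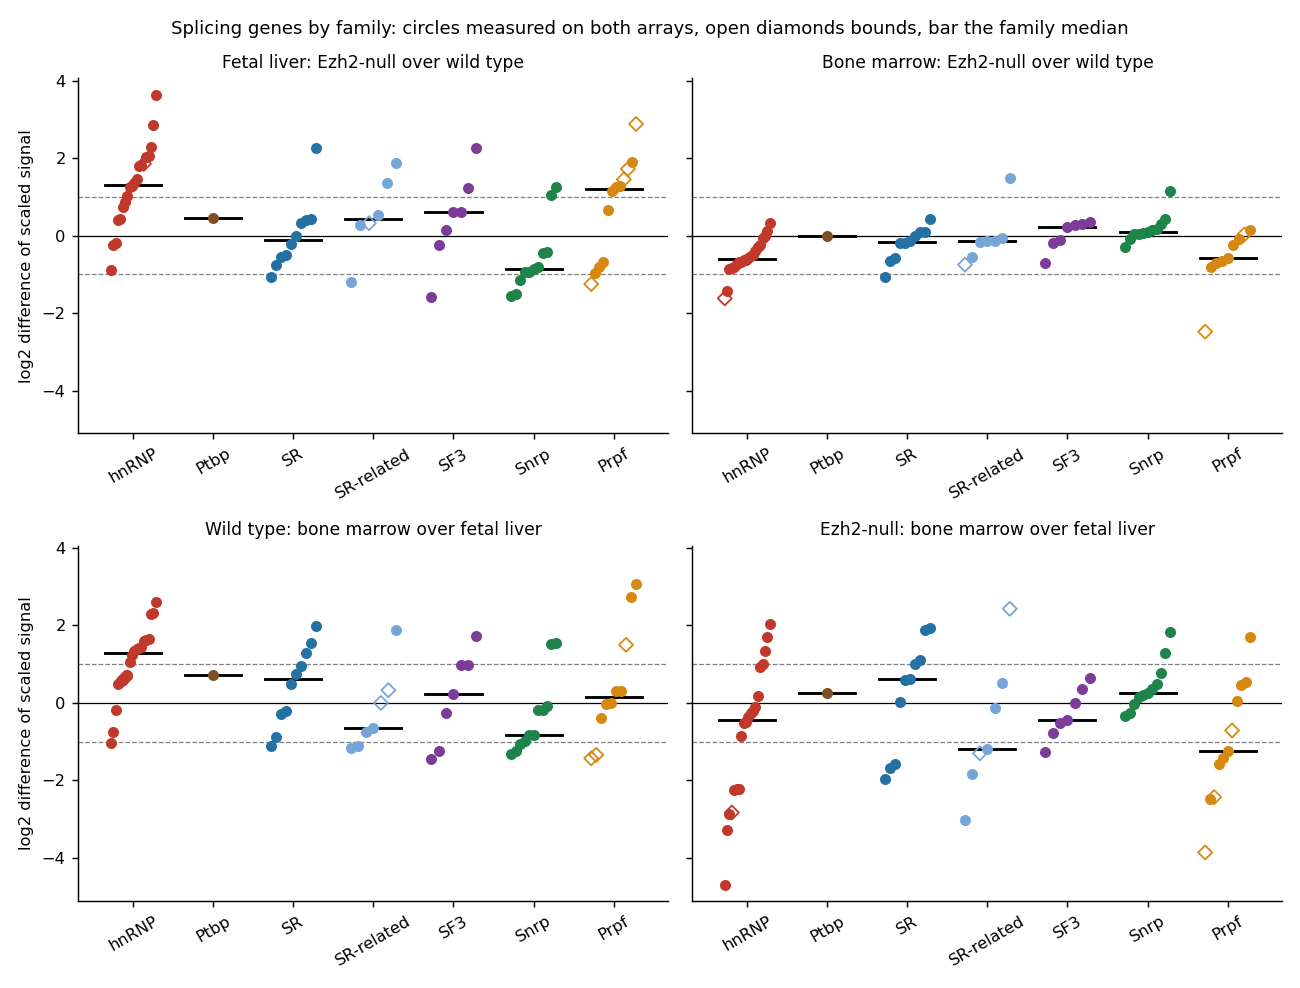
Log2 difference of scaled signal of each splicing gene by family in the 4 comparisons; filled circles were measured on both arrays, open diamonds are bounds, black bars are family medians and dashed lines mark 2-fold. The hnRNP median was 1.31 and the Snrp median −0.85 in fetal liver by genotype, and in bone marrow by genotype most genes lay within 2-fold.

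The fetal liver difference went with where the probe sits in its transcript. Among 67 members the difference correlated with the log10 of the probe's start at r = 0.43 (rho = 0.38), and among 15692 genes at r = 0.25 (rho = 0.29). These are correlations across genes on the same 2 arrays and carry no p-value. Snrp probes started at a median of base 336, hnRNP probes at 1579, Prpf probes at 2536 and SR-related probes at 3488. Over all genes the median difference was −0.40 in the third of probes nearest the 5′ end (starts up to base 881) and 0.12 in the third farthest from it (from base 2088). With this trend removed by a loess curve, 13 of 20 hnRNP genes were still called higher with a median of 1.22, and Snrp genes had a median of −0.61 with 2 called higher and 2 lower. Prpf genes split into 5 higher and 3 lower, against 7 and 1 as measured, the SR-related median became −0.09, against 0.43, and the SF3 median 0.27, against 0.61. Over all members the trend-removed median was 0.22, against 0.46 as measured. In bone marrow by genotype the members' correlation with probe start was −0.38 (rho = −0.38, n = 65) and that of all genes −0.05. Between sources the members' correlation was −0.40 in null (rho = −0.41) and 0.12 in wild type (rho = 0.05). Starts are counted from the 5′ end, so short transcripts can have only low starts, and transcript length was not taken into account. Whether it or other properties that go with probe position take part in the difference was not tested.

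**Figure D3:**
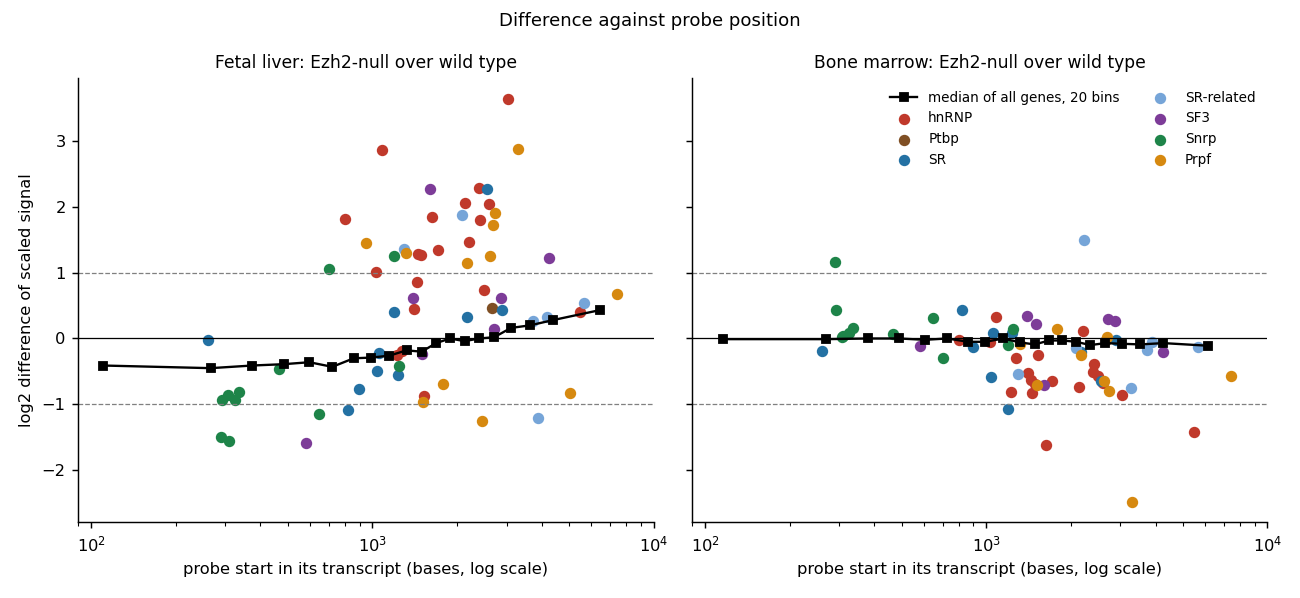
Log2 difference, Ezh2-null over wild type, against the start of the probe in its transcript (log axis, bases) in fetal liver (left) and bone marrow (right); points are splicing genes by family, black squares the medians of all genes in 20 bins of start, and dashed lines 2-fold. In fetal liver the binned medians run from −0.41 for the probes nearest the 5′ end to 0.43 for those farthest from it, and in bone marrow from −0.01 to −0.11.

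In bone marrow few splicing genes differed between the null and the wild-type array. Of 65 members measured, 2 were called higher (4.55% of all genes measured) and 4 lower (7.74% of all genes), a share near the background, with a median of −0.17 against −0.03 for all genes. Sfswap, the mouse homologue of a fly splicing regulator, had 67.8 on bone marrow null against 24.2 on wild type, 2.80-fold higher, and Snrpb had 137.7 against 61.5, 2.24-fold higher. Hnrnpul2 had 11.6 against 31.1, 2.68-fold lower, and Srsf11 had 101.5 against 213.5, 2.10-fold lower. Prpf18 was at least 5.57-fold lower and Hnrnph2 at least 3.08-fold lower, neither being well above background on the null array. None of these 6 calls was kept with normexp background correction, where calls over all genes fell from 697 higher and 1185 lower to 172 and 199. With its offset of 50 that setting could hardly have kept 2-fold calls of signals this low. B lymphoid markers were higher on the same null array, as given above, and their part in these calls was not tested.

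The remaining members lay within 2-fold in bone marrow. Of 20 hnRNP genes 18 were below 0, with a median of −0.60. Snrp genes had a median of 0.09, and 9 of 11 were above 0. By role, Hnrnpu had 44.3 against 80.5, Hnrnpa1 had 349.0 against 543.8, Hnrnpk had 407.8 against 725.2 and Hnrnpa2b1 had 145.0 against 254.9. All 4 were lower on the null array by less than 2-fold. Among the others, Srsf1 had 350.9 against 548.9, Prpf8 had 259.7 against 385.5, Ptbp1 had 2417 against 2453 and Snrpd1 had 2691 against 2564.

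The genotype differences of the 2 sources, which share no array, were of opposite sign for most splicing genes. Of 63 members measured in both sources 48 had opposite signs (76.2%), against 54.1% of 13869 genes. Across the members the differences correlated at r = −0.51 (rho = −0.50), and across all genes at r = −0.19 (rho = −0.19). Within the 20 hnRNP genes alone they did not correlate (r = 0.04, rho = −0.02). Within the other families r was −0.62 for 11 Snrp, −0.55 for 10 SR, −0.49 for 7 SF3 and −0.54 for 9 Prpf genes, and was not computed for SR-related genes and Ptbp1. All 11 Snrp genes had opposite signs, 9 of them lower in null fetal liver and higher in null bone marrow. Of 20 hnRNP genes 15 had opposite signs, and all 15 were higher in null fetal liver and lower in null bone marrow. Many of these differences were small, such as 0.03 at Snrpg and 0.04 at Snrpd2 in bone marrow, and the counts moved with the processing. Over the alternatives opposite signs were found for 9 to 11 of 11 Snrp genes (9 under spike-in scaling), 13 to 17 hnRNP genes, and 69.8% to 76.7% of members. The share of all genes moved too. It was lowest without a background filter, at 44.76% against 72.46% of members. Under the 75th percentile over all probes it was highest, at 60.03% against 69.84% of members, so the members stood out less there. No member was called the same way in both sources, against 217 of 13869 genes. In opposite directions 3 of 63 members were called, a share near that of all genes (522 of 13869). These were Prpf18 and Hnrnph2, higher in null fetal liver and lower in null bone marrow, and Snrpb, the reverse. With 1 array per group the difference between the 2 genotype differences has no test.

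**Figure D4:**
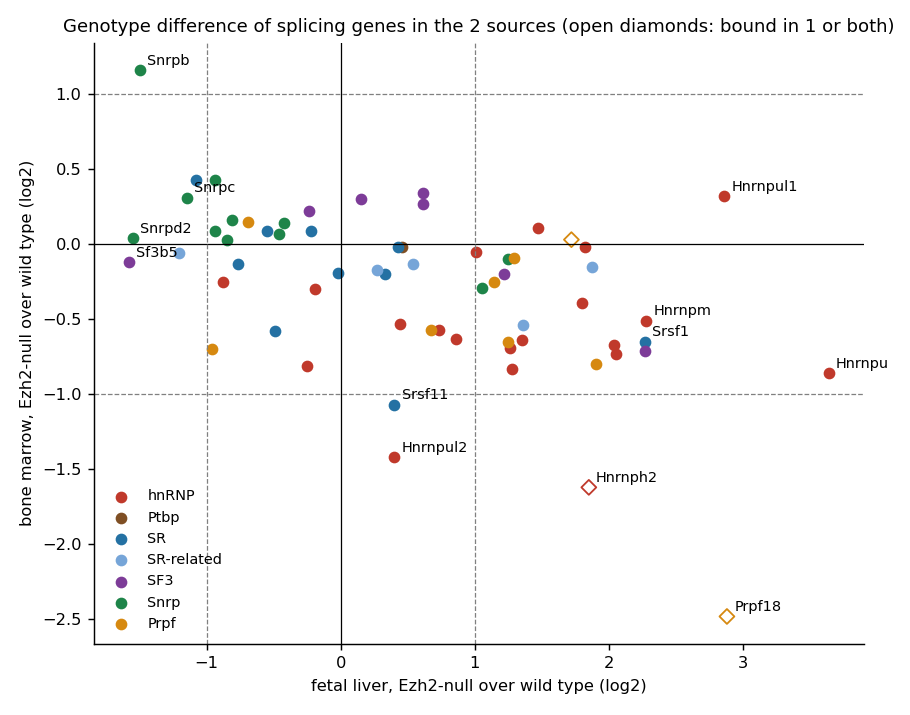
Genotype difference (log2, Ezh2-null over wild type) of 63 splicing genes, in fetal liver on the horizontal axis and in bone marrow on the vertical axis, coloured by family; open diamonds are bounds in 1 or both sources and dashed lines mark 2-fold. Snrp genes sit at the upper left except Snrpa1 and Snrpb2, and Hnrnpu, Hnrnpm, Srsf1, Hnrnph2 and Prpf18 at the lower right.

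Between sources in wild type, hnRNP genes were higher in bone marrow than in fetal liver. Of 66 members measured, 22 were called higher (13.1% of all genes measured) and 11 lower (31.9% of all genes), where 45% of all genes were called in either direction. The median member was 0.40 higher, against −0.58 for all genes. This comparison shares the fetal liver wild-type array with the fetal liver genotype comparison. It also depended on scaling. The split was 28 higher and 2 lower under the 75th percentile over all probes, and 26 and 2 under quantile normalization. Under spike-in scaling it was 47 and 0, and the median of all genes moved to 0.69. All genes, with 2016 higher and 4911 lower as first scaled, became 2843 and 2336, 2665 and 2487, and 6036 and 348 in this order of settings.

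Of the hnRNP genes 12 of 20 were called higher in wild-type bone marrow and 1 lower, with a median of 1.29 (0.78 to 2.59 over the alternatives). Hnrnpa2b1 had 254.9 on bone marrow wild type against 42.1 on fetal liver wild type, 6.05-fold higher. Hnrnpa0 had 2032 against 410.7, 4.95-fold higher, and Hnrnpll, known for switching CD45 exons in lymphocytes, had 179.3 against 36.5, 4.91-fold higher. Hnrnpa1, Hnrnpk and Hnrnpc were 3.07-, 3.05- and 2.74-fold higher. Elsewhere Prpf38a, a tri-snRNP-associated protein, had 202.4 against 24, 8.43-fold higher, Prpf6 was 6.63-fold higher and Prpf18 was at least 2.83-fold higher. Lower in bone marrow were Sf3b5 (2.72-fold), Snrpd2 (2.52-fold), Sf3a2 (2.38-fold), Snrpg (2.34-fold), Akap17b (2.25-fold) and Srsf10 (2.17-fold), together with Prpf39 (at least 2.69-fold) and Prpf4 (at least 2.54-fold). Of these, Sf3a2, Snrpg, Akap17b and Srsf10 had the opposite sign under spike-in scaling. The Snrp median was −0.82, and 0.48 under spike-in scaling.

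Between sources in Ezh2-null cells, 12 of 67 members were called higher in bone marrow (10.5% of all genes measured) and 21 lower (27.1% of all genes). The median was −0.14, against −0.52 for all genes. The split was 21 and 14 under the 75th percentile over all probes, and 28 and 12 under spike-in scaling. All genes went from 1750 higher and 4534 lower to 3800 and 2123, and to 4850 and 1776, in these settings. Hnrnpu had 44.3 on bone marrow null against 1147 on fetal liver null, 25.9-fold lower. Hnrnpul1 was 9.74-fold lower, Srek1ip1 8.11-fold, Hnrnpul2 7.24-fold and Hnrnpr 4.71-fold lower, and Prpf4b had a difference of −2.49 on the log2 scale. Prpf18 had a bound of −3.86 on the log2 scale, and Hnrnph2 and Prpf38b were at least 7.12- and 5.38-fold lower. Higher in bone marrow were Hnrnpa2b1 with 145.0 against 35.5 (4.09-fold), Srsf6 with 116.0 against 30.4 (3.81-fold), Srsf5 with 842.6 against 228.2 (3.69-fold), Snrpb (3.58-fold), Prpf38a (3.24-fold) and Hnrnpd (3.23-fold). Sfswap was at least 5.40-fold higher. The hnRNP median was −0.44, but 0.19 under the 75th percentile over all probes and 0.41 under spike-in scaling.

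A few splicing genes were higher in bone marrow in both genotypes. Srsf5 and Srsf11 encode SR proteins whose tail is rich in alternating serine and arginine. Their probes lie in a stretch that reads open as such a tail, and in the sequences below capitals mark runs of serine and arginine codons that neighbour each other. Srsf5 is shown for its source difference, and Srsf11 as the SR gene called between bone marrow null and wild type. Unlike Srsf5, Srsf11 was lower in bone marrow than in fetal liver, at −0.21 in wild type and −1.69 in null (log2).
Srsf5, chr12:82050878-82050937, mm9, plus strand: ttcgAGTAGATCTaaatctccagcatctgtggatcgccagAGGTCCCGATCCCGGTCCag
Srsf11, chr3:157675744-157675803, mm9, minus strand: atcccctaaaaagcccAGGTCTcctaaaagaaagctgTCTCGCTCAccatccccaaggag

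The Srsf5 probe had 842.6 on bone marrow null and 1264 on bone marrow wild type, against 228.2 on fetal liver null and 321.1 on fetal liver wild type. Both bone marrow arrays lay above both fetal liver arrays. In an additive limma fit of source and genotype over the 4 arrays and 17732 genes, with 1 residual degree of freedom, Srsf5 was 1.93 ± 0.08 (log2, SE) higher in bone marrow, with an adjusted p = 0.278. Hnrnpc was 1.40 ± 0.09 higher and Hnrnpa2b1 2.31 ± 0.23 higher, each with the same adjusted p in limma's fit. For the source term 0 members and 0 genes passed an adjusted p of 0.05 in this fit, while 10 members and 3074 genes had an unadjusted p under 0.05. The 8 higher in bone marrow were Hnrnpa2b1, Hnrnpc, Hnrnpd, Sf3b2, Srsf3, Srsf4, Srsf5 and Srsf6, and the 2 lower were Srek1 and Srsf10. Where the limma fit was restricted to genes detected on all 4 arrays, 2 members and 245 of 11220 genes passed for source. Without a background filter 6 members and 1398 of 31703 genes passed.

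For the genotype term of the same limma fit 0 members and 0 genes passed (0% of genes), and the smallest adjusted p of a member was 0.801. At an unadjusted p under 0.05 there were 430 genes and 1 member, Srsf5, which was 0.54 lower on the null arrays. Restricted to genes detected on all 4 arrays, 0 genes passed, and without a background filter 140 genes and 0 members passed. As fitted over 17732 genes the model could hardly have made calls, since on simulated data for the genotype term it recovered 0% of genes changed 64-fold. Leaving out genes that lay at the floor on all 4 arrays, a choice made after seeing the data, it recovered 6% of genes changed 2-fold, 42% at 4-fold and 100% at 16-fold over 16285 genes, and on the real arrays it again called 0 genes for either term.

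The 4 arrays could also be ordered for each gene. Over the 19 hnRNP genes detected on all arrays, fetal liver wild type was the lowest array for 11 and the highest for none. Over the 11 Snrp genes it was the highest for 7 and the lowest for 2. Over 11177 genes it was the highest for 51.4% and the lowest for 16.0%.

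Several genes had probes that disagreed. Among members with at least 2 measured probes the signs of the probes differed in 6 of 28 for null over wild-type fetal liver and in 6 of 23 for null over wild-type bone marrow. Between sources they differed in 6 of 24 in wild type and in 8 of 28 in null. The probes were called in opposite directions for Srsf3 between sources in both genotypes, and for Hnrnpul1 and Srsf6 between sources in null. Srsf3 encodes a small SR protein that autoregulates by including an exon with a stop codon. Its brightest probe reads open as part of the RNA recognition motif and is shown because the other probes of the gene differ from it.
Srsf3, chr17:29173333-29173392, mm9, plus strand: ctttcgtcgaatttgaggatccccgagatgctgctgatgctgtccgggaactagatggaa

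This probe starts at base 261 and had 7605 on bone marrow null, 8653 on bone marrow wild type, 5068 on fetal liver null and 5152 on fetal liver wild type. The Srsf3 probe starting at base 739 was also higher in bone marrow, with 2041, 2490, 652.3 and 740.6 in the same order. The one starting at base 2447 went the other way, with 6.85 and 8.99 on the bone marrow null and wild-type arrays, neither well above background, against 122.8 and 27.6 on the fetal liver null and wild-type arrays. Between genotypes in fetal liver this far probe was 2.15 higher on the log2 scale and the brightest −0.02. For Hnrnpul1 the probe at base 2812 was 2.77 higher in null bone marrow than in null fetal liver, and the brighter probe at base 1082 was −3.28.

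Further splicing genes, listed by function, were compared in fetal liver in the same way. Over all genes measured there, 15.4% were called higher and 13.5% lower. Values under alternative processing, or with the probe-position trend removed, are not given for these lists. Of 28 other RNA-binding splicing regulators measured, 14 were called higher on the null array and 1 lower, with a median of 0.99. Dhx9, an RNA helicase, had 585.5 against 27.4 and was 21.3-fold higher, Celf2, which binds GU-rich RNA, was at least 8.88-fold higher, and Tial1, which binds U-rich RNA, was 4.88-fold higher. Rbm4 was 2.65-fold lower. Of 15 SR-related proteins and SR protein kinases, 7 were called higher and 1 lower, with a median of 0.96. Rbm39, a U2AF-related factor, had 827.2 against 71.2, 11.6-fold higher, the kinase Clk4 was at least 12.0-fold higher, Tnpo3, the importer of SR proteins, was 6.00-fold higher, and the kinase Clk1 was at least 2.27-fold lower.

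The core lists leaned less, and their share called higher lay nearer that of all genes (15.4% higher, 13.5% lower). Of 38 other U1, U2 and tri-snRNP proteins, 6 were called higher and 8 lower, with a median of −0.20. Smndc1, a relative of SMN, was at least 5.65-fold higher, the U5 helicase Snrnp200 was 3.98-fold higher and the helicase Ddx46 was at least 3.70-fold higher. Luc7l3 was at least 4.57-fold lower, Lsm7, of the ring on U6 snRNA, 2.84-fold lower and Phf5a, an SF3b subunit, 2.56-fold lower. Of 22 proteins of the Prp19 complex and the catalytic steps, 2 were higher (Cwc25 4.49-fold, Snw1 2.94-fold) and 3 lower (Dhx38 at least 6.24-fold, Cwc27 2.50-fold, Ppie 2.16-fold). Of 13 genes of the SMN complex, Gemin5 was 2.28-fold higher, Gemin2 at least 2.83-fold and Coil at least 2.12-fold lower. Of 5 exon junction genes, Casc3 was 2.55-fold higher and Magohb 2.26-fold lower.

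In bone marrow the SR-related proteins and kinases held the most calls: among 17 measured, 2 were called higher (4.55% of all genes) and 5 lower (7.74% of all genes), with a median of −0.61. Rbm25 was at least 3.55-fold higher and Pnn 2.73-fold higher, whereas Clk4 was 3.15-fold lower, Clk2 at least 2.95-fold lower and Son, a speckle protein, 2.84-fold lower. The other two called lower were Srrm1 (2.18-fold) and Clk1 (at least 2.09-fold), beyond the rule for named genes. Of 27 RNA-binding regulators 0 were higher and 2 lower, Khdrbs1 by 2.43-fold and Pspc1 by 2.30-fold. Smndc1 (2.29-fold), Ik (2.08-fold), Ddx20 (4.22-fold) and Coil (at least 2.05-fold) were the genes called lower in the lists of snRNP, Prp19 and SMN proteins, which had none called higher, and no exon junction gene was called.

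The promoters of splicing genes were searched for 4 motifs on both strands, each counted on its own, in windows of 300 bases (250 before and 50 after the start) of RefSeq genes (GRCm38.p6). Of the members 60 matched, with 80 promoters. The ETS-type core CCGGAAG was in 29 of the 80 (36.25%), against 8.86% of 32851 promoters of all genes, which include genes not expressed in MEP. CCAAT was in 38 (47.5%) against 37.4%, TATAAA in 7 (8.75%) against 13.6%, and the NRF1 palindrome in 1 (1.25%) against 0.971%. Among members called higher in null fetal liver CCGGAAG was in 11 of 35 promoters, and among those called lower in 1 of 6. By family it was in 4 of 26 hnRNP promoters and 4 of 10 Snrp promoters. The 100 bases before the start are shown for Snrpc, with CCGGAAG in capitals, and for Hnrnpu, which has no such match in the window. A match is only of letters, and binding was not measured.
Snrpc, chr17:27839987-27840086, GRCm38.p6, plus strand: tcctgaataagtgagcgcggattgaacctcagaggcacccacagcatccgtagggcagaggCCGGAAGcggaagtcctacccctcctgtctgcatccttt
Hnrnpu, chr1:178337816-178337915, GRCm38.p6, minus strand: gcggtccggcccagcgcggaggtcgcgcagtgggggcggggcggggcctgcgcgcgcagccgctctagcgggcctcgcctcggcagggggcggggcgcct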

How the data were processed

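The 4 groups, of 1 array each, were measured. Per the file headers, the authors read one-colour arrays (mm9 design) with Agilent Feature Extraction 10.7.3.1, and the intensity used here, the processed signal, was background-subtracted and detrended within each array, with no step between arrays. The other deposited columns used were names, flags of 0 or 1, the probe's start in its transcript, its sequence and genome position, and mean and background signals of each spot. Only the normexp alternative started from the mean and background signals, with an offset of 50, in place of the processed signal. The authors' series table held the same intensities rounded. Per the labels, 250 ng of total RNA with spike-in RNA was amplified and labelled with Cy3.

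Control and outlier spots were left out, spots of a probe were averaged, and log2 signals were scaled to the same 75th percentile over 12880 probes well above background on all 4 arrays. No spot was saturated, and spots repeated on an array had a median log2 SD of 0.07 to 0.13. That SD was largest on fetal liver wild type, where the lowest detected signal was also the highest of the arrays, at 19.3. On that array 39.0% of probes were well above background, against 46.4% on fetal liver null and 41.8% on each bone marrow array. The fetal liver genotype comparison and the wild-type source comparison both rest on that array. All arrays lay on 1 slide with 1 scan date. Older names were updated through RefSeq. The probe with the highest mean signal stood for a gene, and probes dim on both arrays were left out of a comparison. Only the additive fit (limma 3.58.1, Benjamini-Hochberg adjustment, signals floored at 19.3) gave p-values. They rest on 4 samples, and the labels do not say whether those came from separate animals. The fit was tested on simulated data in which the genotype change was the same in both sources.

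Members, lists and tests were chosen with earlier results of these data known. In each comparison the 6 members called and farthest apart in each direction, the 3 largest bounds, a set of members by role, those called in both sources and those with conflicting probes are named. For each further list the 3 called genes farthest apart in each direction per genotype comparison are named. Members named beyond this rule were chosen after their values were seen, as were the probes and promoters printed, except those of Snrpb and Srsf3. The number of arrays limits the precision.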

Additional observations from a re-analysis of the deposited data

Results flagged for a closer look

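For 3 of 63 splicing genes the genotype differences in fetal liver and bone marrow were called in opposite directions, on 1 array per group. Over all genes 522 of 13869 were called so, a share near that of the members. Prpf18 had 142.1 on fetal liver null against 4.33 on fetal liver wild type and 6.88 on bone marrow null against 54.6 on bone marrow wild type, so that the fetal liver difference was 5.36 above the bone marrow difference on the log2 scale. Hnrnph2 had 69.8 on fetal liver null against 12.4 on fetal liver wild type and 7.05 on bone marrow null against 30.1 on bone marrow wild type, a difference of 3.47. Both values for Prpf18 and Hnrnph2 rest on bounds. Snrpb had 38.5 on fetal liver null against 108.8 on fetal liver wild type and 137.7 on bone marrow null against 61.5 on bone marrow wild type, a difference of −2.66. Each gene has 1 detected probe. The difference between the sources was not tested, because there is 1 array for each combination. Normexp background correction kept none of the 3 bone marrow calls, but with its offset of 50 it could hardly have kept calls of signals this low.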

How the results depend on the processing

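The count of members called higher in null fetal liver (27) became 14 with normexp background correction, and that called lower (7) became 12 under the 75th percentile over all probes, 3 under spike-in scaling and 3 with normexp. Its median (0.46) became 0.29, 0.92 and 0.26 in these 3 settings and 0.22 with the probe-position trend removed. Of the 27 higher calls 10 were kept under every alternative other than the one limited to probes detected on all 4 arrays (Clasrp, Hnrnpa1l2-ps, Hnrnpf, Hnrnph1, Hnrnpm, Hnrnpu, Prpf18, Prpf6, Snrpa1 and Srsf1), and of the 7 lower calls 1, Sf3b5. In bone marrow by genotype the counts (2 higher, 4 lower) became 0 and 0 with normexp, and 1 and 2 with only probes detected on all 4 arrays. For wild-type bone marrow over fetal liver, 22 higher became 47 under spike-in scaling, 11 lower became 2, 0 and 2 under the 75th percentile over all probes, spike-in scaling and quantile normalization, and the median of 0.40 became 0.76, 1.71 and 0.77 there and 0 with normexp. For null bone marrow over fetal liver, 12 higher became 21, 28 and 6 under all probes, spike-in scaling and normexp, 21 lower became 12 under spike-in scaling, and the median of −0.14 became 0.49, 0.71, 0.10 (median over detected probes) and 0 (probes detected on all 4 arrays). Signs turned under spike-in scaling for Akap17b (0.14), Hnrnpul2 (0.27), Sf3a2 (0.06), Snrpf (0.25), Snrpg (0.08), Srek1ip1 (0.19) and Srsf10 (0.18) in wild-type bone marrow over fetal liver, where Srsf10 was 0.27 as the mean of its probes. In null bone marrow over fetal liver they turned for Srsf6 (−0.39 as the mean of probes, −1.22 at the probe nearest the 3′ end), Srsf7 (−0.51) and Hnrnpul1 (2.77), both at the probe nearest the 3′ end. The source term of the limma fit called 2 members with only probes detected on all 4 arrays and 6 with no background filter, against 0. Counts over all genes moved in several of these settings too, as given above. Causes were not tested. Leaving out an array leaves 3 arrays for 3 coefficients and no test, so it gives no count. No paired analysis was possible because each group has 1 array and the labels give no replicate numbers that pair arrays. The additive fit itself compares genotype with source as a term. Dim probes limit the bounds to the lowest detected signal, 9.80 to 19.3 by array.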
